A study of Mus musculus with 16 samples.

Results

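The heat-shock and immediate early stress genes of end-stage mouse mammary tumours were described cell class by cell class. The 10 genes, of 19822 seen in at least 3 barcodes with at least 200 genes, were chosen by name, with earlier results of these data known. No threshold on a measured value was used to choose them. They were 4 heat-shock genes (Hspa1a, Hspa1b, Hsph1 and Dnajb1) and 6 immediate early genes (Fos, Jun, Junb, Egr1, Atf3 and Ier3). All 10 were listed in the tables and detected. The study profiled untreated tumours of the WB1P and WB1P-Myc models of triple-negative breast cancer by Drop-seq, in which a bead that carries a barcode is enclosed with a cell in each droplet and transcript 3′ ends are counted by unique molecular identifiers (UMIs). WB1P mice carried the genotype WapCre;Brca1F/F;Trp53F/F, and WB1P-Myc mice WapCre;Brca1F/F;Trp53F/F;Myc, the last allele being Col1a1invCAG-Myc-IRES-Luc, a Myc and luciferase construct at Col1a1 that Cre switches on. In both, Cre is driven by the whey acidic protein promoter, which directs recombination to mammary epithelium, so both models share the loss of Brca1 and Trp53 there. Each model was 1 cell suspension, and although the study counts 2 mice per model, no library is tied to a mouse. Tumours were cut, digested warm with collagenase and DNase, treated with red blood cell lysis buffer and sorted by flow cytometry for dapi-negative singlets before droplets were made.

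Heat-shock proteins are chaperones that refold or hold unfolded proteins. Their genes are switched on within minutes by heat, proteotoxic stress and many injuries through heat-shock factor 1, which binds inverted GAA repeats in their promoters. Immediate early genes need no new protein for their induction and are switched on by growth factors, cytokines, mechanical strain and stress. Both sets are also known to respond to enzymatic dissociation of solid tissue, so their level in a dissociated tumour need not be the level in the intact tumour. The data hold no undissociated sample, and the part of the dissociation in any level below was not tested.

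The 2 HSP70 genes, Hspa1a and Hspa1b, are near-copies of each other. They followed each other across classes and models while Hsph1 did not. Promoters are shown as a description. Whether promoters, or UMIs that could be assigned to either copy, had a part in these levels was not tested. Promoter windows of 9 of the 10 members (RefSeq, GRCm38.p6) were searched for motifs on both strands. Hsph1 and Dnajb1 had 2 windows each. A match in either counted for the gene, whereas the shares of all windows count every window. The window of Egr1 was not analysed here. The 150 bases before an annotated start are given 5′ to 3′ on the gene's strand for Hspa1a (chr17:34972157-34972306, minus strand), Hspa1b (chr17:34959239-34959388, minus), Hsph1 (chr5:149636337-149636486, minus) and Fos (chr12:85473740-85473889, plus). The table lists 2 starts of Hsph1, and the stretch shown precedes 1 of them and lies inside the span of the gene as annotated. Capitals mark an inverted pair of heat-shock repeats, or in Fos the CRE-like TGACGT.
Hspa1a: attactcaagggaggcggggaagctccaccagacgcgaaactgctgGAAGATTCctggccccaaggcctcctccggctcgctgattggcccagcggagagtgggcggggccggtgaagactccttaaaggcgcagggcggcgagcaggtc
Hspa1b: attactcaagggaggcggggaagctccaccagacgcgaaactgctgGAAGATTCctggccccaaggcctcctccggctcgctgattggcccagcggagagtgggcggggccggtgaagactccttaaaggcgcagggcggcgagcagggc
Hsph1: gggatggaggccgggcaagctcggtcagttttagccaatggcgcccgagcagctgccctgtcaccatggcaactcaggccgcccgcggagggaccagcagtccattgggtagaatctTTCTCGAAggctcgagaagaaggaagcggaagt
Fos: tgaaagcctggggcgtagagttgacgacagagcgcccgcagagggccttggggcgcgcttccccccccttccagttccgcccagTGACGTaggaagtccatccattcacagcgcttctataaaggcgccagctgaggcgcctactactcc
These stretches of Hspa1a and Hspa1b differed at 1 of 150 bases, and the full windows at 4 of 300. The head-to-head form GAANNTTC was present in 4 of the 9 genes (Hspa1a, Hspa1b, Hsph1 and Jun) and in 7.86% of 32841 windows of the same length. In Hsph1 this match lay after the annotated starts, outside the stretch shown. The tail-to-tail form TTCNNGAA was present in Hsph1 alone among the members and in 8.52% of all windows. TGACGT was present in Fos and Atf3 (7.52% of all windows). TATAAA was found in Fos and Junb (13.6%), and CCAAT in 8 of the 9 genes, Fos being the exception (37.4%). The AP-1 site TGANTCA, the full CRE TGACGTCA and the CArG box were in no window of the 9 genes (7.81%, 1.79% and 1.63% of all windows). TGACGT is a part of the full CRE, and the head-to-head and tail-to-tail forms can share letters. A match is a description of these windows, not a bound site. The transcripts of Hspa1a and Hspa1b are 85.3% identical over their whole length and 49.8% over the last 300 bases, the end that 3′ counting reads, and the split of UMIs between the copies is uncertain to a degree the counts do not show, and their summed level is given beside the single genes.

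The counts came from 8 libraries with 1000 barcodes listed in each, 4 droplet fractions of 1 cell suspension per model. The filters kept 1307 WB1P and 3491 WB1P-Myc cells, with a median of 1724 and 2359 UMIs per cell. Each model was therefore 1 sample. No test between models was possible, the spread over fractions is technical, and because each model was prepared as a suspension of its own, preparation and model cannot be told apart. WB1P fraction 1 stood apart, with 65 cells (426, 394 and 422 in the other three) and a median of 887 UMIs. It held 60 epithelial-like cells and at most 2 cells of each stromal class, so stromal fraction values of WB1P are given for fractions 2 to 4, the ones with at least 10000 UMIs in the class. Cells were clustered without the 10 members and without 81 further stress genes, and the clusters were named from fixed markers: epithelial-like (675 WB1P and 1414 WB1P-Myc cells), Schwann-like (1032, WB1P-Myc only), macrophage-like (377 and 699), fibroblast-like (217 and 274) and endothelial-like (38 and 72). The epithelial-like cells of the models came from different clusters. The one holding 659 of the WB1P cells was led by 12 epithelial markers, Krt8 and Epcam among them, and the one holding 1403 of the WB1P-Myc cells by 6, Krt14 and Krt17 among them, with none in its 10 top genes. Summed epithelial markers were 11903 CPM in the first class and 3596 in the second. "Tumour cells" below are epithelial-like and Schwann-like cells together. Whether the Schwann-like cells are tumour cells was not tested. They are part of this reference in WB1P-Myc only, so ratios to tumour cells have unlike references in the models. In the stromal classes the summed epithelial, Schwann, macrophage, fibroblast or endothelial markers of another class were at 16.2 to 992 CPM, and pericyte markers reached 1522 CPM in endothelial-like cells of WB1P-Myc. The macrophage-like class also held T or NK markers (221 and 257 CPM). Of 4797 kept barcodes, 1 occurred in 2 libraries. No doublet caller was run. Levels are UMIs of a gene per 1000000 UMIs of the class (CPM) and are not divided by transcript length. Exact 95% intervals, Poisson for levels and conditional binomial for ratios, stand in brackets after a value and cover counting error only. Fewer cells in a given state and less RNA per cell cannot be told apart in such pooled levels.

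Pooled over fractions, the HSP70 genes Hspa1a and Hspa1b were higher in WB1P than in WB1P-Myc in every class named in both models. The epithelial-like cells compared here came from different clusters in the models, so model and kind of tumour cell cannot be told apart. In epithelial-like cells Hspa1a was at 67.2, 259, 93.6 and 174 CPM in WB1P fractions 1 to 4. The WB1P-Myc fractions had 81.4, 85.1, 97.2 and 109 CPM. WB1P fraction 1 lay below the WB1P-Myc range, fraction 3 inside it, and fractions 2 and 4 above it. The pooled levels were 178 CPM (95% interval 160.5 to 198) and 92.6 CPM (95% interval 84.4 to 101), a log2 ratio of WB1P-Myc over WB1P of -0.94 (95% interval -1.15 to -0.74). With 1 fraction left out at a time it ran from -1.17 to -0.52, the latter without WB1P fraction 2. Hspa1b, its near-copy, was at 22.4, 179.8, 99.1 and 146 CPM in WB1P and 35.7, 54.0, 71.6 and 69.9 CPM in WB1P-Myc. The lowest WB1P fraction was again fraction 1, below every WB1P-Myc fraction, and the other three were above all of them. Pooled, Hspa1b was 2.47-fold higher in WB1P (log2 ratio -1.30 [-1.54 to -1.06], and -1.45 to -1.05 with 1 fraction left out). The WB1P fractions thus differed from each other by as much as the models did.

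The same 2 genes were also lower in WB1P-Myc in the pooled levels of the stromal classes. In macrophage-like cells Hspa1a was at 177, 42.0 and 165 CPM in WB1P fractions 2 to 4 and 27.1, 64.9, 43.2 and 17.0 CPM in the 4 WB1P-Myc fractions. WB1P fraction 3 lay inside the WB1P-Myc range. Hspa1b was at 77.6, 63.0 and 107 CPM against 18.1, 38.4, 18.5 and 10.2 CPM, without overlap. The pooled log2 ratios were -1.68 [-2.21 to -1.15] and -1.94 [-2.65 to -1.25]. In fibroblast-like cells Hspa1a was at 199.6, 269 and 201 CPM in WB1P and 101, 57.0, 103 and 52.8 CPM in WB1P-Myc. Hspa1b was at 128, 162 and 130.3 CPM against 36.8, 57.0, 67.1 and 17.6 CPM. Neither gene overlapped between the models in this class, with log2 ratios of -1.53 [-1.96 to -1.11] and -1.64 [-2.20 to -1.09]. Endothelial-like cells gave the fewest counts, 16 and 10 UMIs of Hspa1a and 13 and 5 of Hspa1b. Their log2 ratios were -2.19 [-3.49 to -0.96] and -2.89 [-4.73 to -1.31], with wide intervals. With 1 fraction left out at a time they ran from -2.69 to -1.01 and from -3.72 to -2.46. In a shallower MiSeq run of the same fractions the fibroblast-like ratio of Hspa1a was -0.49.

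Hsph1 did not share this pattern. It encodes a large HSP110-type chaperone that also serves HSP70 as a nucleotide exchange factor. Epithelial-like cells held 179, 162, 89.9 and 175 CPM in WB1P and 182, 176, 159 and 151 CPM in WB1P-Myc. The ranges overlapped and the log2 ratio was 0.18 [-0.01 to 0.38]. In macrophage-like cells it was higher in WB1P-Myc, at 60.2, 38.4, 46.2 and 57.8 CPM against 22.2, 37.8 and 20.7 CPM, a log2 ratio of 0.89 [0.12 to 1.73] on 18 WB1P UMIs. The sign of that ratio was the opposite in the MiSeq run (-0.18). Dnajb1, an HSP40 co-chaperone that hands clients to HSP70, was at 89.6, 70.8, 78.9 and 86.2 CPM in epithelial-like cells of WB1P against 44.3, 45.0, 68.2 and 72.4 CPM in WB1P-Myc, ranges that overlapped, with a log2 ratio of -0.47 [-0.76 to -0.19]. Its ratios in macrophage-like, fibroblast-like and endothelial-like cells were -0.42 [-1.05 to 0.23], 0.14 [-0.23 to 0.51] and 0.15 [-1.23 to 1.77], each with an interval that includes 0.

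**Figure D1:**
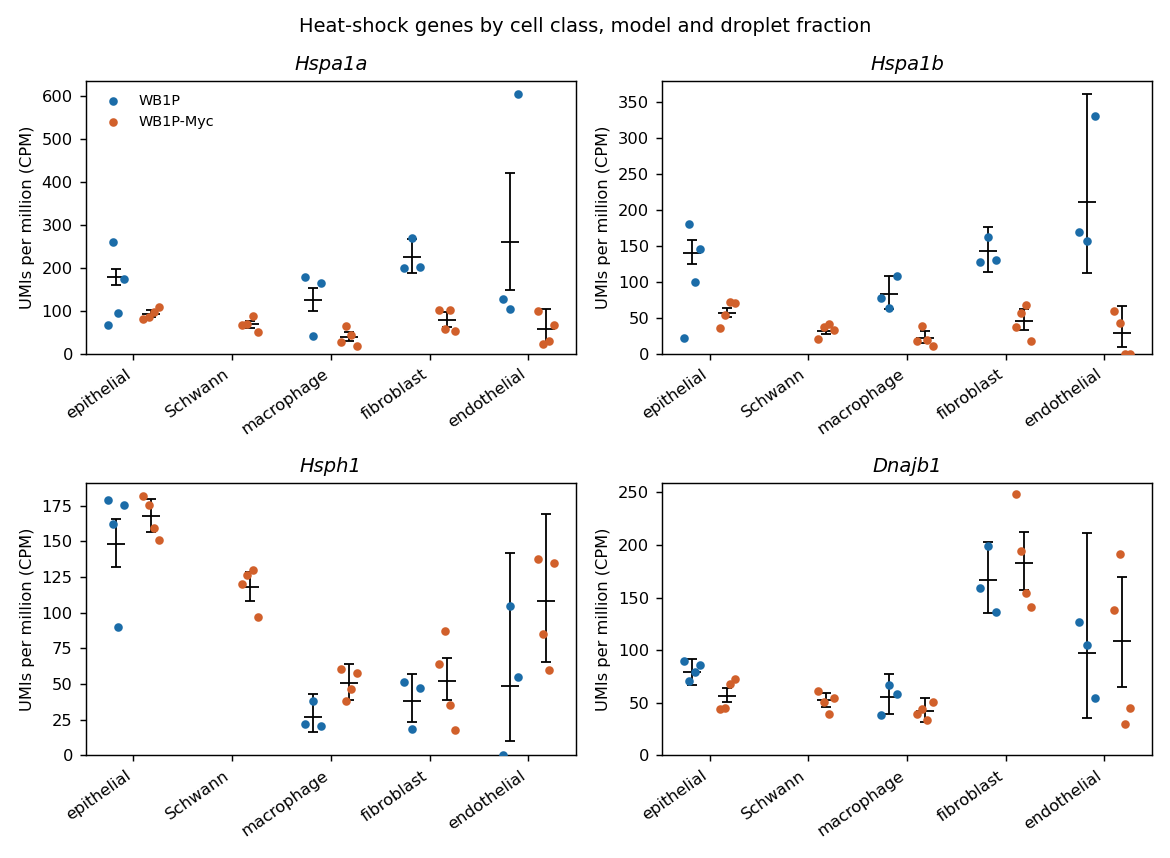
Levels of the 4 heat-shock genes (y axis, CPM, linear from 0) in each cell class (x axis) of WB1P (blue) and WB1P-Myc (orange). Points are droplet fractions with at least 10000 UMIs in the class, black bars the level pooled over all fractions with its exact 95% Poisson interval; Hspa1a and Hspa1b have their pooled WB1P bar above the WB1P-Myc bar in every shared class, whereas the Hsph1 bars do not.

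Across classes the heat-shock genes fell into different orders. Within WB1P, Hspa1a and Hspa1b overlapped between neighbouring classes throughout, from endothelial-like (470.4 CPM for both genes) over fibroblast-like (367) and epithelial-like (318) to macrophage-like cells (207). Within WB1P-Myc their order was epithelial-like (149), fibroblast-like (124), Schwann-like (99.8), endothelial-like (85.5) and macrophage-like (60.5), again with overlap between all neighbours. Macrophage-like cells were lowest in both. Hsph1 had its highest pooled level in epithelial-like cells of both models, overlapping with the few endothelial-like cells in WB1P. In fibroblast-like cells it was at 0.255 times the level of tumour cells in WB1P and 0.361 times in WB1P-Myc, lower in every one of the 3 and 4 fractions compared. Within WB1P-Myc it was also higher in epithelial-like (151 to 182 CPM) than in Schwann-like cells (96.8 to 130.1 CPM), without overlap. Dnajb1 had another order. Fibroblast-like cells ranged over 136 to 199.5 CPM in WB1P, and over 141 to 248 CPM in WB1P-Myc, 2.11-fold and 3.35-fold the tumour cells (log2 1.08 [0.70 to 1.45] and 1.74 [1.49 to 1.99]), and higher in all fractions compared. Summed over the 4 genes, macrophage-like cells had a log2 ratio to tumour cells of -0.91 [-1.14 to -0.69] in WB1P, lower in all 3 fractions. In WB1P-Myc the ratio was -1.09 [-1.30 to -0.88], lower in all 4. Fibroblast-like cells were near the tumour cells, at 0.07 [-0.11 to 0.25] and 0.14 [-0.02 to 0.31], although the WB1P value was -0.60 in the MiSeq run.

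The immediate early genes were abundant in all classes. Their summed level ran from 3276 CPM in macrophage-like to 9645 CPM in fibroblast-like cells of WB1P, and from 3373 to 8492 CPM in the same classes of WB1P-Myc. With every cell thinned to 600 UMIs, a UMI of at least 1 of the 6 genes was found in 88.3% (95% interval 85.6 to 90.6%) of WB1P and 75.0% (95% interval 72.7 to 77.3%) of WB1P-Myc epithelial-like cells. The share was 75.3% and 78.5% of macrophage-like cells and 92.2% and 89.4% of fibroblast-like cells. Without thinning these shares were 96.4% and 91.2%, 92.8% and 95.6%, and 97.7% and 94.5%. A UMI of any heat-shock member was far less frequent, at 21.3% and 16.6% of thinned epithelial-like cells (47.7% and 48.6% unthinned). Thinning left out 1 cell. No class is known to lack these genes, so no share here can be set against a class that should have none.

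Fos, the AP-1 subunit that pairs with Jun proteins, was at 2411, 2492 and 2695 CPM in fibroblast-like cells of WB1P fractions 2 to 4 and at 2483, 2266, 2318 and 2269.5 CPM in the 4 of WB1P-Myc. Macrophage-like cells were at 837, 912 and 868 CPM against 936, 903, 885 and 949 CPM, the lowest class in both models and apart from the next class. In epithelial-like cells Fos was at 5432, 2504, 1691 and 1756 CPM in WB1P fractions 1 to 4 and 1549.9, 1607, 1403 and 1537 CPM in WB1P-Myc. Every WB1P fraction was above every WB1P-Myc fraction, and the small fraction 1 stood far above the other three. The pooled log2 ratio was -0.51 [-0.56 to -0.45], and -0.40 without WB1P fraction 1. Schwann-like cells, at 1454 to 1512 CPM, lay inside the epithelial-like range of the same model.

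Jun, the other core AP-1 subunit, was highest in fibroblast-like and endothelial-like cells. Fibroblast-like cells had 2636, 2622 and 2943 CPM in WB1P and 2492, 1989, 2148 and 1733 CPM in WB1P-Myc, which did not overlap (log2 ratio -0.40 [-0.49 to -0.30]). They stood 2.70-fold and 2.29-fold above the tumour cells of their model. In epithelial-like cells the Jun ranges of WB1P (899 to 1512 CPM) and WB1P-Myc (945 to 1280.1 CPM) overlapped (log2 ratio 0.12 [0.04 to 0.19]). Schwann-like cells (627 to 759 CPM) were below the epithelial-like cells of WB1P-Myc in every fraction, with a log2 ratio of -0.67 [-0.73 to -0.61].

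Junb followed another order. It encodes an AP-1 subunit that often opposes Jun. Macrophage-like cells, low for Fos and Jun, had 826, 1521 and 1418 CPM in WB1P and 770.4, 776, 943 and 922 CPM in WB1P-Myc. This was 2.15-fold and 2.18-fold the tumour cells (log2 1.10 [0.98 to 1.23] and 1.13 [1.03 to 1.22]), and higher in all 3 and all 4 fractions. In WB1P, macrophage-like, fibroblast-like and endothelial-like cells overlapped for Junb. In WB1P-Myc macrophage-like cells overlapped with both other stromal classes. Fibroblast-like cells there (highest fraction 888 CPM) lay just below endothelial-like cells (lowest fraction 896 CPM). The tumour classes lay below the stromal classes in both models. Between models Junb was lower in WB1P-Myc in epithelial-like (-0.60 [-0.71 to -0.50]), macrophage-like (-0.60 [-0.73 to -0.47]) and fibroblast-like cells (-0.74 [-0.89 to -0.60]), and only in fibroblast-like cells did no fraction overlap. In the MiSeq run, which left 3 epithelial-like WB1P-Myc cells, the epithelial-like ratio was 0.40.

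Egr1 spanned the widest fold range between classes of the 10 genes in both models. This zinc-finger transcription factor is induced by growth factor and serum signalling. Fibroblast-like cells had 1832, 1759 and 2535 CPM in WB1P and 2617, 2263, 2641 and 1944 CPM in WB1P-Myc. Macrophage-like cells had 88.7, 101 and 86.8 CPM against 166, 195, 450.1 and 292 CPM. The fibroblast-like level was 2.32-fold and 3.27-fold that of tumour cells, and the macrophage-like level 0.109 and 0.379 times. In thinned cells an Egr1 UMI was found in 61.3% and 66.1% of fibroblast-like and in 4.51% and 9.87% of macrophage-like cells. Unthinned, the shares were 85.3% and 86.5% against 12.2% and 24.2%, at median depths of 2294 and 2718 against 1453 and 1492 UMIs. Macrophage-like cells of WB1P-Myc were 2.92-fold higher than those of WB1P (log2 ratio 1.55 [1.15 to 1.96]), with no overlap. When a profile of barcodes with under 450 genes was subtracted at 10% of each cell's UMIs, too little Egr1 was left in WB1P macrophage-like cells for this ratio to be read. In epithelial-like cells the models overlapped, with a log2 ratio of -0.12 [-0.20 to -0.04].

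Atf3, a stress-induced repressor of the ATF and CREB family, had another stromal order, with endothelial-like cells above macrophage-like and these above fibroblast-like cells in the pooled levels of both models. Fibroblast-like cells were at 195, 241 and 201 CPM in WB1P and 340.3, 259, 288 and 281 CPM in WB1P-Myc, 0.313 and 0.678 times the tumour cells, and lower in every fraction compared. Endothelial-like cells were at 1522, 1517 and 1045 CPM against 1360.2, 512, 481 and 404 CPM. WB1P-Myc fraction 1 stood far above its other three, so the endothelial values overlapped. Macrophage-like and fibroblast-like cells had more Atf3 in WB1P-Myc, with log2 ratios of 0.80 [0.56 to 1.04] and 0.45 [0.14 to 0.77] and no overlap between fractions, although the MiSeq run gave -0.02 in fibroblast-like cells. In epithelial-like cells the ratio had the other sign, -0.33 [-0.42 to -0.23], with overlap, and 0.87 in the MiSeq run.

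Ier3 had the largest log2 ratio between models of the 10 genes in epithelial-like cells, which came from different clusters in the models. It is an early response gene whose small protein acts in survival signalling. Epithelial-like cells held 1109, 835, 809 and 832 CPM in the WB1P fractions and 167, 218, 195 and 184 CPM in the WB1P-Myc fractions. The lowest WB1P fraction was above the highest WB1P-Myc fraction, with means of 896 ± 142 CPM (SD over fractions, n = 4) and 191 ± 21.2 CPM (SD over fractions, n = 4). The pooled log2 ratio was -2.14 [-2.26 to -2.03]. Macrophage-like cells had 321, 311 and 335 CPM against 355, 319, 413 and 354 CPM, a ratio of 0.16 [-0.08 to 0.40]. Fibroblast-like cells had 763, 603 and 1096 CPM against 474, 753, 612 and 603 CPM, a ratio of -0.37 [-0.55 to -0.19]. Both classes overlapped between models. Within WB1P-Myc, tumour cells therefore had the least Ier3, and the macrophage-like level was 2.35-fold and the fibroblast-like level 4.02-fold theirs. Within WB1P, where the tumour cells were epithelial-like alone, the corresponding values were 0.383 and 0.949.

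**Figure D2:**
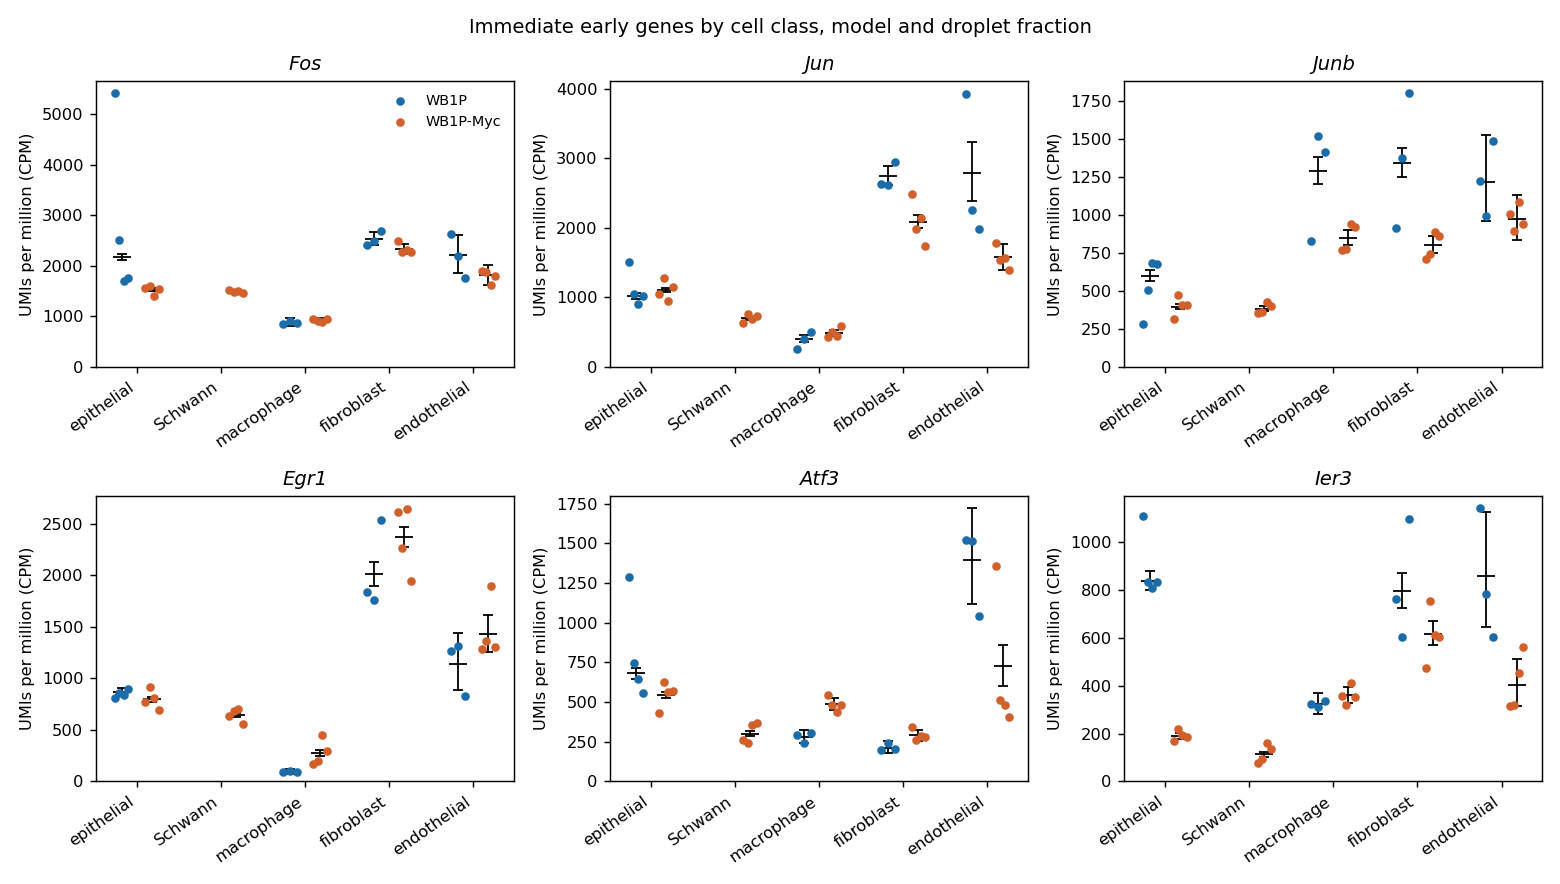
Levels of the 6 immediate early genes (y axis, CPM, linear from 0) in each cell class (x axis) of WB1P (blue) and WB1P-Myc (orange). Points are droplet fractions with at least 10000 UMIs in the class and black bars the pooled level with its exact 95% Poisson interval; macrophage-like cells are low for Fos, Jun and Egr1 and not for Junb, and Ier3 is low in the tumour cells of WB1P-Myc.

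Taken as a sum, the immediate early genes ranked fibroblast-like and endothelial-like cells above tumour cells and macrophage-like cells below them. The log2 ratios to tumour cells in WB1P were 0.64 [0.60 to 0.69], 0.64 [0.52 to 0.76] and -0.91 [-0.98 to -0.85], each with that sign in all 3 fractions. In WB1P-Myc they were 1.05 [1.01 to 1.08], 0.75 [0.67 to 0.83] and -0.29 [-0.33 to -0.24], each in all 4. The macrophage-like difference in WB1P-Myc was 0.01 when cells were assigned by marker UMIs without clustering. In the fibroblast-like class of WB1P, 4 of the 10 members were at least 2-fold above tumour cells (Dnajb1, Jun, Junb and Egr1), beside 13.1% of 6372 genes with at least 50 UMIs, and 2 (Hsph1 and Atf3) at least 2-fold below (24.7% of genes). In WB1P-Myc 5 were above (the same 4 and Ier3; 16.4% of 10838 genes) and 1 below (26.9%). In the macrophage-like class of WB1P 6 were at least 2-fold below (27% of 6454 genes) and 1, Junb, above (13.7%), and in WB1P-Myc 4 below (30.6% of 11010 genes) and 2, Junb and Ier3, above (17%). In the endothelial-like class 3 were above in WB1P (Jun, Junb and Atf3; 12.5% of 5461 genes) and 1, Hsph1, below (19.6%). In WB1P-Myc 2 were above (Junb and Ier3; 25.1% of 10471 genes) and 0 below (18.8%). The median log2 ratio of all genes to tumour cells was -0.38 and -0.37 in macrophage-like and -0.34 and -0.33 in fibroblast-like cells, so the median member lay above the median gene in fibroblast-like cells (0.28 and 0.84) and below it in macrophage-like cells (-1.29 and -0.81). Macrophage-like cells were the lowest class for Fos, Jun and Egr1 in both models, apart from the next class each time. For Junb they were among the highest, and for Atf3 the lowest pooled level was that of fibroblast-like cells, which overlapped with the next class in both models.

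Between models the members were read against all genes of the same class with at least 50 UMIs. The summed heat-shock members had log2 ratios of -0.54 [-0.65 to -0.44] in epithelial-like, -0.93 [-1.22 to -0.63] in macrophage-like, -0.67 [-0.89 to -0.45] in fibroblast-like and -1.03 [-1.66 to -0.39] in endothelial-like cells. In the MiSeq run the macrophage-like and fibroblast-like values were -1.91 and -0.055. Those of the immediate early sum were -0.44 [-0.47 to -0.41], 0.04 [-0.03 to 0.12], -0.18 [-0.23 to -0.13] and -0.47 [-0.62 to -0.33]. The first was 0.23 on the MiSeq, where 3 WB1P-Myc cells carried it. The second was -0.45 as a mean of fractions, which gives the 2 cells of WB1P fraction 1 the weight of any other fraction. The last was -0.14 without an upper limit on genes per cell. In epithelial-like cells 2 of 10 members, Hspa1b and Ier3, were past a 2-fold difference downward in WB1P-Myc (a log2 ratio of -1 or less), beside 15.1% of 9470 genes, and 0 upward (15.4%). All 4 WB1P fractions were above all 4 WB1P-Myc fractions for Fos and Ier3 (17.5% of genes), and the reverse held for no member (19.5%). The downward counts and the count for WB1P above were near the share of all genes. In macrophage-like cells Hspa1a and Hspa1b were past 2-fold downward (3.12% of 5158 genes) and Egr1 upward (5.39%). WB1P fraction 1 had only 1465, 2969 and 695 UMIs in macrophage-like, fibroblast-like and endothelial-like cells. With it, few genes could count as WB1P above in these classes, so the absence of a member there says little. With all 4 fractions, no macrophage-like member was apart with WB1P above (1.34%) and Hsph1 was with WB1P-Myc above (10.6%). With WB1P fraction 1 left out, Hspa1b was apart with WB1P above (6.26%), and Hsph1, Egr1 and Atf3 with WB1P-Myc above (12%). In fibroblast-like cells Hspa1a and Hspa1b were past 2-fold downward (1.97% of 4418 genes) and 0 members upward (2.72%). With all 4 fractions, Hspa1b, Jun and Junb were apart with WB1P above (1.54%) and Atf3 with WB1P-Myc above (5.52%). With fraction 1 left out, Hspa1a joined them (5.91%), and Atf3 remained (7.36%). In WB1P fraction 1, Hspa1b and Junb were at 337 and 1010 CPM on 2969 UMIs of all genes. A few UMIs there therefore decide whether these genes are apart with all 4 fractions, so their presence also says little. In endothelial-like cells 6 members, all immediate early genes, reached 50 UMIs, so the heat-shock genes are not in these counts. Ier3 was past 2-fold downward (1.67% of 899 genes) and 0 upward (4%). No member was apart with all 4 fractions (1.45% and 2.89%), and without fraction 1 Jun and Ier3 were, with WB1P above (4.67%), and none the other way (4.34%). The median log2 ratio of all genes was 0.01, 0.13, 0.06 and 0.01 in these classes. Another scaling (TMM) moved all ratios of macrophage-like cells down by 0.11 and all those of endothelial-like cells up by 0.13, and among single members Fos in macrophage-like cells changed sign (0.05 to -0.06), as did the immediate early sum there (-0.07).

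**Figure D3:**
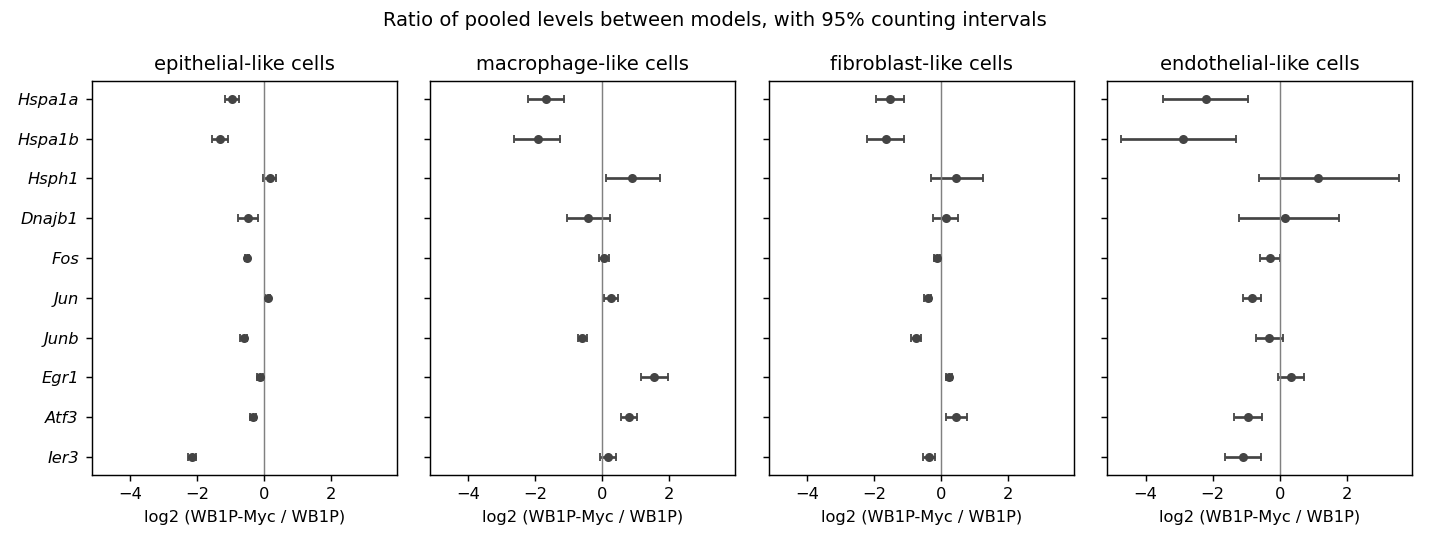
Log2 ratio of the pooled level in WB1P-Myc over that in WB1P (x axis) for each of the 10 genes (y axis) in the 4 classes held by both models. Points are ratios and bars exact 95% conditional binomial intervals, which cover counting error only; Hspa1a and Hspa1b lie left of 0 in all 4 classes and Ier3 farthest left in epithelial-like cells.

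The spread of the members over single cells was read after thinning every cell to 600 UMIs. In WB1P epithelial-like cells Hspa1a or Hspa1b had a UMI in 12.1% (95% interval 9.78 to 14.9%) of cells (26.2% unthinned), with up to 10 UMIs in a cell. The highest single cell, epithelial-like in WB1P-Myc, had 52 of its 600 UMIs from the 6 immediate early genes. The share of cells with a Hspa1b UMI was higher among Hspa1a-positive cells in 7 of the 9 combinations of class and model. Among WB1P epithelial-like cells with a Hspa1a UMI 27.3% (15 of 55, 95% interval 16.1 to 41.0%) also had one of Hspa1b, against 4.35% (27 of 620, 2.89 to 6.27%) of the others. In WB1P-Myc these shares were 20.3% (15 of 74, 95% interval 11.8 to 31.2%) and 2.24% (30 of 1339, 1.52 to 3.18%). They were 36.0% (9 of 25, 95% interval 17.97 to 57.5%) and 2.27% (8 of 352, 0.986 to 4.43%) in macrophage-like cells of WB1P. Schwann-like cells had 10.5% (4 of 38, 95% interval 2.94 to 24.8%) and 1.31% (13 of 994, 0.698 to 2.23%). The exceptions were fibroblast-like and endothelial-like cells of WB1P-Myc, where 0 of 21 and 0 of 3 Hspa1a-positive cells had a Hspa1b UMI. Fos and Jun were also found together: Jun was detected in 47.1% (188 of 399, 95% interval 42.1 to 52.1%) of WB1P epithelial-like cells with a Fos UMI and in 29.7% (82 of 276, 24.4 to 35.5%) of those without. Across the same combinations the share of Jun was higher in Fos-positive cells in all 9. For the HSP70 genes and Fos the shares of WB1P epithelial-like cells lay closer together. A UMI of either HSP70 gene was found in 12.5% (50 of 399, 95% interval 9.45 to 16.2%) of Fos-positive and 11.6% (32 of 276, 8.07 to 16.0%) of Fos-negative cells. The share was higher in Fos-positive cells in all combinations but macrophage-like cells of WB1P. Over 31 combinations of class and fraction with at least 20000 UMIs, which share libraries and depth, the correlation (Pearson's r of log2 levels) was 0.77 for Hspa1a with Hspa1b, 0.84 for Fos with Jun and 0.89 for Jun with Egr1. It was -0.21 for Hspa1b with Hsph1 and -0.71 for Hsph1 with Junb.

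In epithelial-like cells the pooled level of the HSP70 genes moved with the mitochondrial share of a cell, a common sign of damaged cells. In WB1P epithelial-like cells they were together at 161 (126 to 202) CPM in cells with under 2% mitochondrial UMIs, 284 (255 to 316) at 2 to under 5%, 669 (577 to 772) at 5 to under 10% and 491 (354 to 664) at 10 to under 20%. In WB1P-Myc epithelial-like cells the 4 values were 98.1 (84.9 to 113), 161 (144 to 178), 191 (157 to 231) and 409 (328 to 504) CPM. WB1P was higher in all 4 bins, with overlapping intervals in the last. The WB1P fractions were unequal in this: at 5 to under 20%, fractions 1 to 4 had 0, 1075, 265 and 546 CPM, against 100.5, 156, 282 and 135 CPM under 2%. The course was seen in fractions 2 and 4 and not in fraction 3. Fraction 1 had 89279 UMIs in the class over all bins and few of them in this bin, so its 0 says little. In WB1P-Myc fraction 3 had 200.1 CPM under 2% and 188 CPM at 5 to under 20%, and the other three were higher in the second bin. In Schwann-like cells the 4 bins held 89.8 (76.4 to 105), 105 (93.0 to 119), 126 (81.8 to 187) and 62.8 (7.61 to 227) CPM, with overlapping intervals. Median mitochondrial shares were close, 3.16% in WB1P and 2.98% in WB1P-Myc epithelial-like cells. The immediate early sum had no such course in epithelial-like cells. Pooled, it went from 6763 over 6173 and 5871 to 3989 CPM in WB1P and from 4259 over 4724 and 4939.8 to 4632 CPM in WB1P-Myc. Between under 2% and 5 to under 20%, WB1P fractions 1 to 4 went from 10634, 6465, 5838 and 5955 CPM to 6128, 5046, 6166 and 5143 CPM, higher in fraction 3 and lower in the others. The second value of fraction 1 again rests on few UMIs. In WB1P macrophage-like cells the HSP70 genes were at 268 (206 to 343) CPM under 2%, 179.7 (138 to 229) at 2 to under 5% and 141 (67.6 to 259) at 5 to under 20%, with overlapping intervals in the first and last. The fractions did not share 1 course: fraction 2 had 267, 228 and 330.4 CPM in these bins, fraction 3 had 146, 78.2 and 141 CPM, and fraction 4 had 397, 254 and 102 CPM. Those of WB1P-Myc were at 52.0 (35.1 to 74.3), 53.2 (36.2 to 75.6) and 130.1 (75.8 to 208) CPM, and in the last bin fractions 1 to 4 had 0, 519.9, 58.9 and 0 CPM. In WB1P fibroblast-like cells they were at 356 (300.4 to 419) and 352 (268 to 454) in the first bins, and at 1017 (508 to 1819) in the 10 cells at 5 to under 20%, with all of their UMIs from fraction 4. Those of WB1P-Myc were at 103 (80.7 to 129), 176 (123 to 245) and 293 (134 to 557) CPM, higher at 5 to under 20% than under 2% in all 4 fractions but fraction 3. The last of these values came from 26 cells with 30684 UMIs of all genes. Mitochondrial UMIs count in the CPM total, so a larger share lowers the CPM of other genes across these bins too. The part of the mitochondrial share in the difference between models was not tested beyond these bins. The bins were set after the data were seen.

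**Figure D4:**
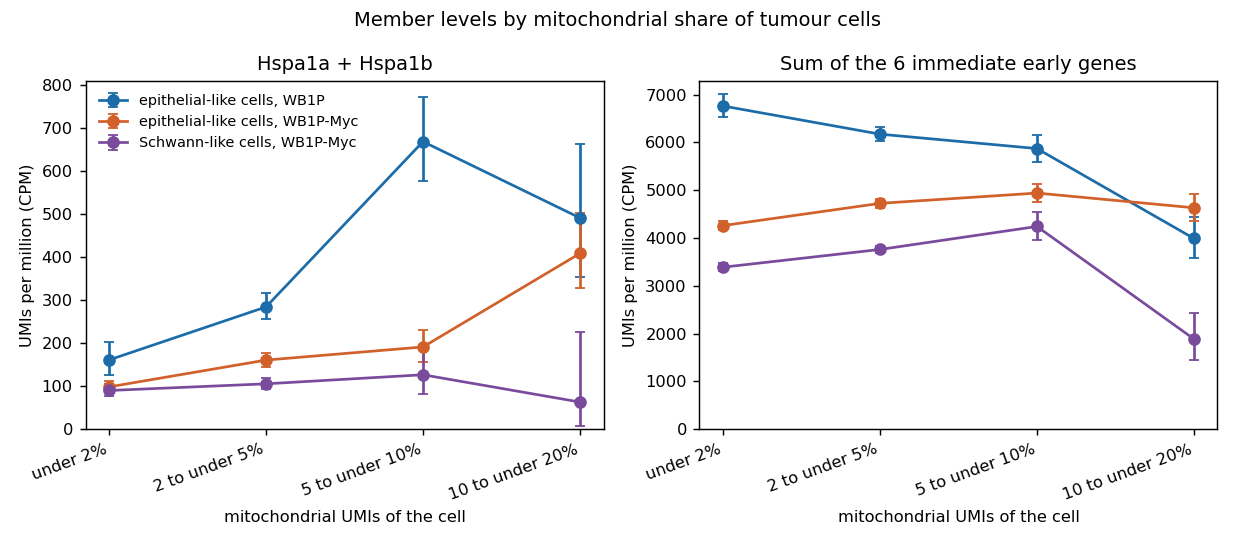
Pooled level (y axes, CPM, linear from 0) of Hspa1a and Hspa1b together (left) and of the 6 immediate early genes (right) in epithelial-like cells of WB1P (blue) and WB1P-Myc (orange) and Schwann-like cells of WB1P-Myc (purple), by the share of mitochondrial UMIs of the cell (x axes). Bars are exact 95% Poisson intervals; the HSP70 genes of WB1P are at 161 CPM under 2% and 669 CPM at 5 to under 10%, while the pooled immediate early sum of WB1P is at 6763 CPM in the first bin and 3989 CPM in the last.

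Barcodes outside the filters were also read. Those with 20% or more mitochondrial UMIs numbered 381 in WB1P and 144 in WB1P-Myc. Mitochondrial UMIs are part of the CPM total, so a high mitochondrial share by itself lowers the CPM of every other gene. Levels per non-mitochondrial UMI were not computed for these barcodes. Their immediate early sum was 3447 CPM (3159.7 to 3754) in WB1P, against 6266 CPM (6182 to 6352) in kept cells. In WB1P-Myc it was 2855 CPM (2591 to 3139) against 4426 CPM (4388 to 4464). Their HSP70 level was 254 CPM (181 to 347) in WB1P, where kept cells had 308 CPM (289 to 327). In WB1P-Myc the values were 147 CPM (92.0 to 222) and 118 CPM (112 to 124). Barcodes with over 4000 genes had more immediate early RNA, at 7584 CPM (7449 to 7719.9) and 5263 CPM (5196 to 5330.3). The WB1P barcodes with under 200 genes and under 20% mitochondrial UMIs, 1324 in number, had 8634 CPM (8256 to 9024) of the immediate early sum and 2333 CPM (2139 to 2540.2) of Junb, above the 878 CPM (846 to 910.0) of kept WB1P cells. Whether these barcodes held free RNA or remains of cells was not tested. They are part of the profile subtracted above for Egr1, and with that subtraction the log2 ratio between models of Junb in epithelial-like cells was -0.30 and that of Ier3 in macrophage-like cells 0.45.

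At a finer cluster resolution of 0.6 the members differed between clusters of 1 name. At this resolution 2 clusters were named Schwann-like, of 542 and 494 cells, all from WB1P-Myc and together not the same set as the 1032 cells above. The first was led by 8 Schwann markers, with 1 in its 10 top genes, at a median of 4543 UMIs. The second was led by 5, with 0 in its top genes, at 2380.5 UMIs. Its top genes included the cartilage matrix genes Acan and Col2a1, so the 2 clusters may not be 1 kind of cell. Atf3 was at 125 CPM in the first and 611 CPM in the second, and Ier3 at 50.2 and 226 CPM, while Fos was at 1449.7 and 1541 CPM. A cluster of 194 cells without a name, of which 16 came from WB1P, had a median of 9.87% mitochondrial UMIs and the highest Hspa1a and Hspa1b of all 12 clusters, 429.8 CPM. Another of 237 cells had the lowest immediate early sum, 2147 CPM. A cluster of 54 T or NK-like cells, which was not separate at the main resolution, had the highest Junb (1566 CPM) and the lowest Fos (453 CPM). Against 1414 epithelial-like WB1P-Myc cells above, the 2 clusters named so here held 320 and 11, and clusters of 419, 238, 237 and 194 cells, mostly from WB1P-Myc, had no name. Over the cluster of 320 and those without a name the immediate early sum ran from 2147 to 6344 CPM and Fos from 723 to 2275 CPM. Assigned by marker UMIs alone, 546 WB1P-Myc cells were epithelial-like and 783 could not be assigned. These values describe clusters of these libraries and carry no test.

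The wider stress lists were read in the same way, in tumour cells with the Schwann-like cells that WB1P-Myc alone held. Of 23 other heat-shock genes, all reached 50 UMIs in tumour cells, where 3 were at least 2-fold higher and 1 at least 2-fold lower in WB1P-Myc, against 18.2% and 12.7% of 10981 genes, and 3 and 0 of the 10 members were lower and higher. Their median log2 ratio was 0.21 and that of the members -0.58, beside 0.09 for all genes. Hspb8, which encodes a small heat-shock protein, had 34.3 CPM in WB1P-Myc against 2.94 CPM in WB1P, and the mitochondrial chaperone gene Hspd1 had 1577 and 764.8 CPM, with Hspa4, an HSP110-type chaperone gene, at 297 and 123 CPM. Hspb1, another small heat-shock protein, went the other way, at 166 and 481 CPM. Of 32 other immediate early genes 31 could be read in tumour cells, and 16 were at least 2-fold lower in WB1P-Myc and 1, Dusp2, higher, with a median of -1.04. Cebpb, a transcription factor of mammary and inflammatory programmes, was at 109 and 874 CPM with overlap between fractions of the models, and the MAP kinase phosphatase gene Dusp6 at 54.8 and 375 CPM. In macrophage-like cells 3 of 28 genes of the same list were at least 2-fold higher (Egr2, Nr4a1 and Dusp2; 5.39% of all genes) and 1 at least 2-fold lower (Socs3; 3.12%). In fibroblast-like cells 1 of 28 was lower (Socs3; 1.97%), overlapping between fractions, with medians of -0.26 and -0.33 in the 2 classes. Of the endoplasmic reticulum stress list 4 of 15 were at least 2-fold lower in tumour cells (Xbp1, Trib3, Dnajb9 and Dnajc3; 12.7% of all genes). In macrophage-like and fibroblast-like cells none of 13 and none of 12 were, where the shares of all genes were also low (3.12% and 1.97%). Of the oxidative stress and metallothionein list 9 of 10 could be read in tumour cells, where Mt2 was at least 2-fold higher in WB1P-Myc (846 against 321 CPM; 18.2% of all genes) and Srxn1 at least 2-fold lower (5.67 against 12.7 CPM, with overlap between fractions; 12.7%). In macrophage-like cells 9 could also be read, and Mt1 (1151 against 2995 CPM) and Mt2 (153 against 370.2 CPM, with overlap) were at least 2-fold lower (3.12%). In fibroblast-like cells 0 of 6 were past 2-fold. Summed other heat-shock genes, which include the constitutive chaperones, were highest in epithelial-like cells of both models (12083 CPM in WB1P and 17153 CPM in WB1P-Myc), and summed other immediate early genes in endothelial-like cells (14923 and 11088 CPM).

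Among the genes whose pattern over the 31 combinations was closest to the heat-shock sum were Rbfox2 (r = 0.73), Peg3 (0.73), Golim4 (0.71) and Igfbp5 (0.69), of 4511 genes with at least 500 UMIs. Those closest to the immediate early sum were Tpm1 (0.93), S100a16 (0.92), Nudt4 (0.91), Pam (0.91) and Cald1 (0.91). Tpm1, a tropomyosin of the actin cytoskeleton, had 1205 CPM in WB1P and 1099.8 CPM in WB1P-Myc fibroblast-like cells. Macrophage-like cells had 103 and 129 CPM. The genes nearest to the heat-shock sum had lower correlations with it than those nearest to the immediate early sum. The heat-shock sum rested on fewer UMIs in kept cells, 1676 against 20976 in WB1P and 3686 against 52859 in WB1P-Myc. The part of counting noise in the lower correlations was not tested.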

How the data were processed

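Single cells of 8 Drop-seq droplet fractions, 4 per model, were measured by the authors on a HiSeq and again on a MiSeq. The deposited tables hold raw UMI counts per gene symbol and barcode, which the authors made with dropseq-tools. The labels name build mm10 and Scanpy, and no aligner is given in the sources used here. The HiSeq tables gave the main values and the MiSeq tables a repeat run. The merged table was not used here. Groups were taken from the sample titles.

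Barcodes with 450 to 4000 genes and under 20% mitochondrial UMIs were kept, and genes seen in at least 3 cells entered clustering. Clustering ran on log values of counts brought to 10000 per cell, left out 91 stress genes and used 30 principal components, 20 neighbours and Leiden resolution 0.3. A cluster was named from 11 marker lists, from the markers among its 10 top genes and then from those leading it (a UMI in at least 10% of cells and a mean at least 2 times that of the others), with at least 3 required. Counts were pooled per class, model and fraction into CPM. Poisson intervals were used for CPM, Clopper-Pearson for shares and conditional binomial for ratios, all exact at 95% and for counting error only. With 1 sample per model there was no test. Genes with at least 50 UMIs were read as background. Shares of cells and co-detection were taken after each cell was thinned to 600 UMIs. Promoter windows came from RefSeq (GRCm38.p6), which gene symbols matched for 9 of the 10 members.

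The members and lists were chosen with earlier results of these data known. The named genes are the 10 members, genes of 4 wider stress lists past a 2-fold difference, and the 5 genes most alike to each sum by Pearson's r of log2(CPM + 10), of which 1 is not reported here. Also computed were the MiSeq run, other filters, scalings, clusterings and totals, and leaving out each fraction. The subtraction of free RNA estimated from barcodes with under 450 genes, the use of fractions with at least 10000 UMIs, the mitochondrial bins and the classes of excluded barcodes were added after the data were seen. Ratio and interval functions were tested on simulated data. Software was Python 3.11.15 with numpy 2.4.6, scipy 1.17.1, pandas 2.3.3, igraph 0.11.9, scanpy 1.11.5, biopython 1.88, anndata 0.12.19, matplotlib 3.10.9 and scikit-learn 1.9.0, and edgeR 4.0.16 under R 4.3.3 for TMM factors.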

Additional observations from a re-analysis of the deposited data

Results flagged for a closer look

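In 72 groups of 4 droplet fractions, one for each member or sum in a class and model, 4 had a fraction that stood outside the spread of the other three by Dixon's ratio of gap to range, taken past its 95% critical value. Chance alone gives about 1 in 20 such groups, and no cause was tested. In epithelial-like cells of WB1P, Ier3 was at 1109 CPM in fraction 1, the fraction with 65 cells, and at 809 to 835 CPM in the others. The heat-shock sum of macrophage-like cells of WB1P-Myc was at 186 CPM in fraction 2 and at 136 to 144 CPM in the others. In endothelial-like cells of WB1P-Myc, Egr1 was at 1896 CPM in fraction 3, against 1281 to 1365 CPM. In the same class Atf3 was at 1360.2 CPM in fraction 1, against 404 to 512 CPM. That class held 72 cells over all 4 fractions.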

How the results depend on the processing

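Of the values for the sums and gene counts, 227 held under the alternatives, 29 moved and 2 reversed. Of those for single members, 89 held, 16 moved and 4 reversed. Reversed means a change of sign in a ratio whose interval excluded 0, and other changes of sign are among those that moved or, within the spread over fractions, held. Leaving out any 1 fraction moved none of 112 values of the sums and 320 of single members beyond that spread, which comes from the same fractions and so bounds little. The sign changed with the fraction left out for the macrophage-like immediate early sum (-0.061 to 0.10), for Dnajb1 in endothelial-like (-0.32 to 0.46) and fibroblast-like cells (-0.021 to 0.32), and for Hsph1 in epithelial-like cells (-0.012 to 0.32). It also changed for the heat-shock sum over tumour cells in endothelial-like (-0.27 to 0.64 in WB1P, -0.42 to 0.12 in WB1P-Myc) and fibroblast-like cells (-0.22 to 0.31 and -0.0012 to 0.30). The cause of the changes below was not tested. Log2 ratios are of WB1P-Myc over WB1P unless a class over tumour cells is named.

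The MiSeq run is shallow and held 3 epithelial-like WB1P-Myc cells and no endothelial-like cluster. It gave a heat-shock sum of -1.91 in macrophage-like and -0.055 in fibroblast-like cells, and of -0.60 for WB1P fibroblast-like and -1.63 for WB1P-Myc macrophage-like over tumour cells. Its immediate early sum reversed to 0.23 in epithelial-like cells and was -0.69 for WB1P-Myc macrophage-like and 0.76 for fibroblast-like over tumour cells. Single members that reversed there were Hsph1 in macrophage-like cells (-0.18), Junb (0.40) and Atf3 (0.87) in epithelial-like cells and Atf3 in fibroblast-like cells (-0.016). In WB1P-Myc the immediate early sum over tumour cells was 0.0059 in macrophage-like cells assigned by marker UMIs, a reversal. It was -0.14, 1.25 and 0.56 in macrophage-like, fibroblast-like and endothelial-like cells with TMM factors, -0.51, 0.83 and 0.54 without mitochondrial and ribosomal protein genes in the total, and 0.58 in endothelial-like cells when thinned. The heat-shock sum of WB1P-Myc macrophage-like over tumour cells was -1.31 without those genes. The immediate early sum was -0.14 in endothelial-like cells without an upper gene limit, and -0.45 and -0.41 in macrophage-like and fibroblast-like cells as a mean of fractions. That mean gives WB1P fraction 1 the weight of any other fraction. It had 2 cells in each class, at 8874 and 16167 CPM on 1465 and 2969 UMIs of all genes. With that fraction left out, the macrophage-like means were 3210 CPM in WB1P and 3381 CPM in WB1P-Myc.

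At a minimum of 10 UMIs, genes past 2-fold numbered 2379 lower and 2638 higher in epithelial-like, 565 and 1270 in macrophage-like, 527 and 928 in fibroblast-like and 328 and 606 in endothelial-like cells. With TMM, 9 were lower in endothelial-like cells. Genes with every WB1P fraction above numbered 323, 261 and 42 in the stromal classes without fraction 1, and 69, 68 and 13 with it. The planned free RNA profile from barcodes with under 200 genes was not run, since the WB1P-Myc tables list at most 1 such barcode per fraction. Whether the barcodes with under 450 genes, used in its place, held free RNA was not tested. Clustered at a minimum of 200 genes, WB1P barcodes named macrophage-like numbered 560, against 377 at the main filter. A neutrophil-like cluster of 216 barcodes with a median of 457.5 UMIs also appeared. The profile can therefore hold RNA of cells as well. No paired analysis was possible because the fraction numbers only name droplet fractions of different suspensions and no result comes from a test. Heat-shock counts were lowest in endothelial-like cells, with 38 UMIs of the sum in 38 WB1P cells and 53 in 72 WB1P-Myc cells.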
